A study of Mus musculus with 12 samples.

Results

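The genes described are 10 named members of the cholinergic anti-inflammatory pathway and its cytokine output: Tnf, Il1b, Il6, Il18, Nlrp3, Hmgb1, Jak2, Stat3, Socs3 and Nfkbia. They were taken by symbol from a table of 25284 genes, and all 10 were in it. RNA was sequenced from thoracic aorta of male ApoE-/- mice on a C57BL/6 background, which lack functional apolipoprotein E. Both groups carried this mutation, were fed high fat diet and were 18 weeks of age. There were 6 mice in each group: 6 mice received AZ6983, an agonist of the alpha 7 nicotinic acetylcholine receptor (α7nAChR), from osmotic minipumps at a daily dose of 50 µmol per kg over 8 weeks, and 6 control mice received vehicle from the same kind of pump. The mice are called C1 to C6 (control) and A1 to A6 (AZ6983) here, and these numbers are names only.

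In the cholinergic anti-inflammatory pathway, signals of the vagus nerve reach macrophages through α7nAChR, which is encoded by Chrna7. The receptor is known to act through the kinase JAK2 and the transcription factor STAT3, and to restrain NF-κB, so that macrophages release less TNF, IL-1β, IL-6, IL-18 and HMGB1. NLRP3 forms the inflammasome that matures IL-1β and IL-18. SOCS3 is induced by STAT3 and inhibits JAK signalling, and Nfkbia encodes IκBα, which is induced by NF-κB and holds it in the cytoplasm.

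The sequences around the start sites of 3 members are shown because these genes stand for the transcription factors of the pathway: Nfkbia is the classical NF-κB target, Socs3 the classical STAT3 target and Il6 a cytokine gene downstream of NF-κB. Each window runs from 250 bases before to 50 bases after the start site of the gene, 5′ to 3′ on the gene's strand, from RefSeq on GRCm38.p6. The windows are chr12:55492598-55492897 (minus strand) for Nfkbia, chr5:30012864-30013163 (plus strand) for Il6 and chr11:117969317-117969616 (minus strand) for Socs3. Capitals mark matches to a kappaB motif, GGGANNNNCC, or to a STAT motif, TTCNNNGAA, each searched on both strands.
Nfkbia: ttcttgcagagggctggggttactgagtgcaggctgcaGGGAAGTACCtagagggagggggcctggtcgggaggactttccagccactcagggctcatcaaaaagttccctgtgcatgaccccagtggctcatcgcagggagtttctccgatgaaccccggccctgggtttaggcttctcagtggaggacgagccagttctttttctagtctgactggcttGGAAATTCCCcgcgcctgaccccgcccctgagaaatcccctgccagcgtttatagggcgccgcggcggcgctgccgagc
Il6: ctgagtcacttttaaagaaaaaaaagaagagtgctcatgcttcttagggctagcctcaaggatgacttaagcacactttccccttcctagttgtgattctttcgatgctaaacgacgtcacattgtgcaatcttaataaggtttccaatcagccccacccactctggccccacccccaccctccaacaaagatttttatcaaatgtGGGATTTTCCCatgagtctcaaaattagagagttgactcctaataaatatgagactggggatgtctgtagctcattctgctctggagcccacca
Socs3: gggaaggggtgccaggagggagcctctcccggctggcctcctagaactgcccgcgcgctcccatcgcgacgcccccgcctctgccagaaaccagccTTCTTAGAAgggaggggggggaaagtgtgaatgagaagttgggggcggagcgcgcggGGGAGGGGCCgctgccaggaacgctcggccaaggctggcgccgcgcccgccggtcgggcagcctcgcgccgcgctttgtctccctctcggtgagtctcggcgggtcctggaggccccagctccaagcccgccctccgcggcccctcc
The Nfkbia window held kappaB matches starting 212 and 29 bases before the start site, and the Il6 window a pair of overlapping matches starting 44 and 43 bases before it. The Socs3 window held a STAT match starting 154 bases before the start site and a kappaB match starting 97 bases before it. Of the 12 windows of the 10 members, 5 held the kappaB motif, in Tnf, Il6, Nlrp3, Socs3 and Nfkbia, and 1 held the STAT motif, in Socs3. Among all 32851 windows of the same length, 20.7% held the kappaB motif and 8.30% the STAT motif. The RefSeq start of Socs3 lies 681 bases inside the gene as GENCODE M21 places it, so the annotations differ and the window is upstream by RefSeq alone, while for Nfkbia and Il6 both give the same start. A match of letters is a description and not a measured binding site.

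The counts on genes were between 25641329 and 29131708 per control mouse and between 23810036 and 35864666 per AZ6983 mouse. Reads outside every gene were 8.02% to 12.7% of the reads of the control mice and 11.2% to 14.9% of those of the AZ6983 mice. Among the controls, only C2 at 12.7% lay within the AZ6983 range. Fits below that take this percentage of unassigned reads as a covariate therefore cannot tell it apart from treatment. The library of A4 stood apart by its thymocyte and T cell markers, with a summed thymocyte level of 1326 CPM (a gene's count scaled to a common library size) against at most 61.2 CPM in the other 11 mice. C6 had lower endothelial and brown fat scores than the other controls, while some AZ6983 mice had brown fat scores close to that of C6. The smooth muscle, endothelial and macrophage markers of an aortic wall were present in every mouse. Apoe, the gene mutated in all 12 mice, had 117 to 306 counts in the control mice and 214 to 311 in the AZ6983 mice, and, as both groups carry the mutation, it checks no treatment label. Across the 15857 genes that passed the filter on low counts, 0 genes (0%) were called at a false discovery rate (FDR) of 10% by edgeR, and 1616 (10.2%) had an unadjusted p under 0.05, of which 1170 (7.38%) were higher and 446 (2.81%) lower in AZ6983.

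Of the 10 members, 9 passed the filter and Il6 did not. None of the 9 was called at 10% FDR by edgeR, limma-voom or DESeq2, and 1 of the 9, Nfkbia, had an unadjusted p under 0.05 with each of these tools. This share, 11.1%, stands beside the 10.2% of all tested genes. Log2 fold changes were positive for 7 members and negative for 2, with a median of 0.03 on the log2 scale, where all tested genes had a median of 0.01 and 52.4% were positive. In 0 of the 9 did the groups lie apart, which was the case for 65 (0.41%) of all tested genes. The aorta was sequenced whole, so fewer cells of a type and less RNA per cell cannot be told apart in any of these values.

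**Figure D1:**
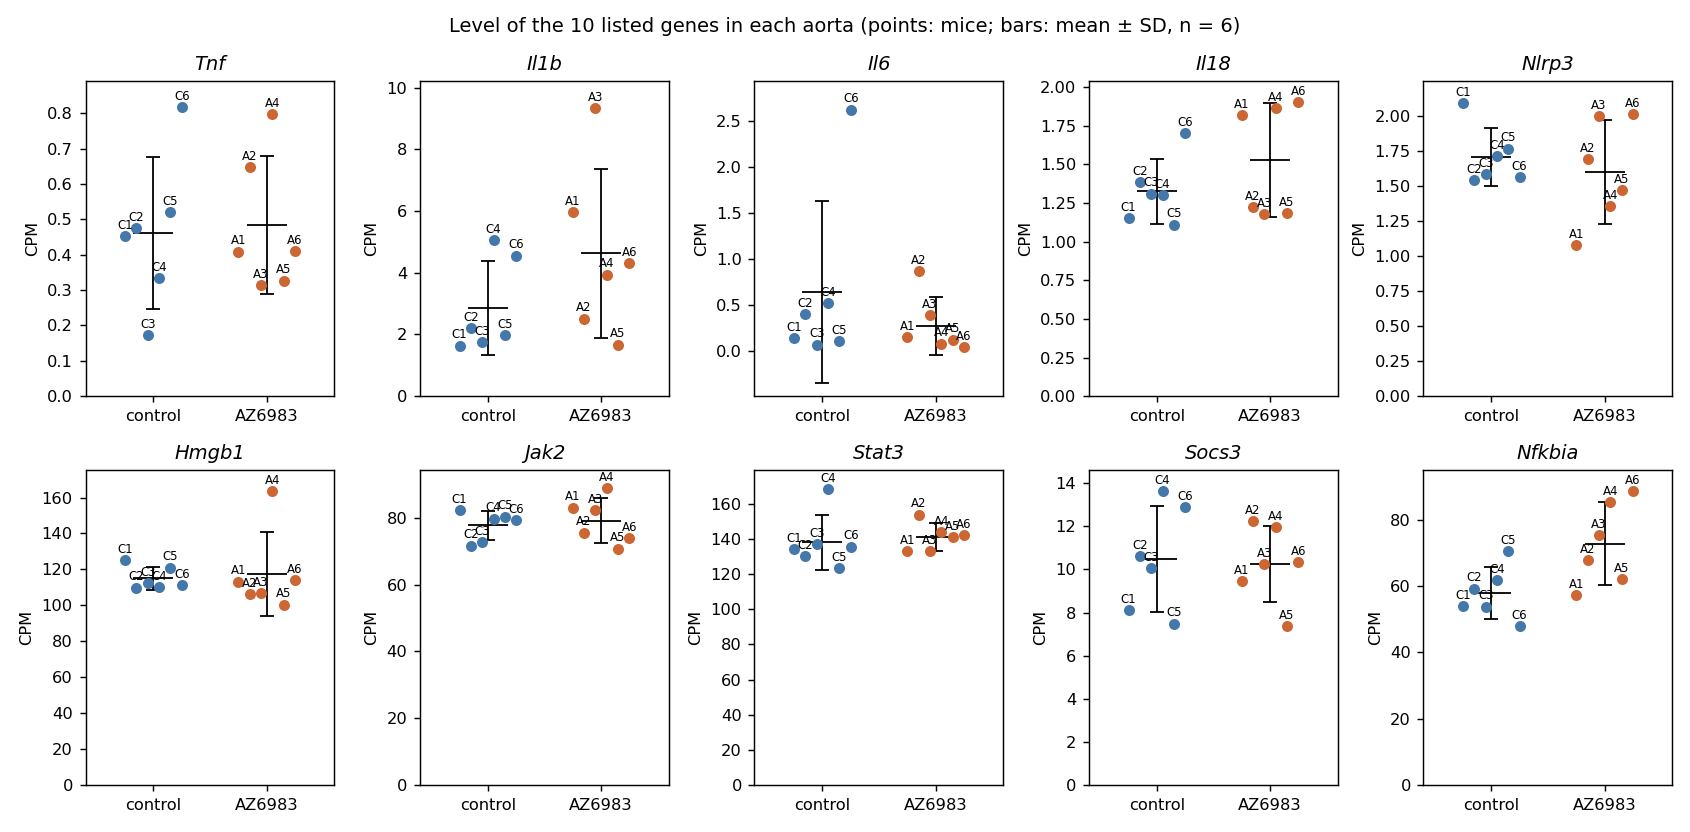
Level of each of the 10 genes in CPM (vertical axes, linear and with their own scales) in the 6 control (blue) and 6 AZ6983 (orange) mice. Points are mice, and horizontal lines with bars are mean ± SD. The groups overlap in all 10 panels, C6 stands alone for Il6 at 2.62 CPM, A4 for Hmgb1 at 164 CPM, and Nfkbia reaches 88.5 CPM in A6 against a control maximum of 70.4 CPM.

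The members spanned a wide range of levels in the aorta. Divided by exon length, Nfkbia had the highest mean over the 12 mice at 40.6 CPM per kb ± 7.85 (SD), followed by Hmgb1 at 23.1 ± 3.25, Jak2 at 15.6 ± 1.10 and Stat3 at 14.7 ± 1.25. Socs3 followed at 3.59 CPM per kb ± 0.709, and the inflammatory genes were lower, with Il1b at 1.96 ± 1.21, Il18 at 1.38 ± 0.295, Nlrp3 at 0.408 ± 0.072, Tnf at 0.289 ± 0.119 and Il6 at 0.188 ± 0.298. In the order of means, the signalling genes and Hmgb1 lay above the cytokine genes and Nlrp3. Neighbours in the order had ranges that did not overlap at 3 places only, from Hmgb1 to Jak2, from Stat3 to Socs3 and from Il18 to Nlrp3. Jak2 was above Stat3 in 8 of 12 mice and Il1b above Il18 in 7 of 12, so these pairs have no fixed order.

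Il1b had the largest coefficient of variation between mice among the 9 tested members, in both groups. Il1b (chr2:129364570-129371139, minus strand) encodes IL-1β, the cytokine that NLRP3 matures. It was 1.64 CPM at the lowest, 2.10 at the median and 5.06 at the highest in control mice, and 1.68, 4.13 and 9.33 CPM in AZ6983 mice. C4 and C6 were high among the controls, A3 and A1 were above every control, and A5 lay near the control minimum, so the groups overlapped. The means were 2.87 CPM ± 1.52 and 4.63 ± 2.74 (SD, n = 6), a log2 fold change of 0.69 with a standard error of 0.417 (95% interval -0.21 to 1.59, edgeR adjusted p = 0.561). An exact permutation test of the log2 CPM gave p = 0.203, two-sided. The coefficient of variation between mice was 53.2% in controls and 59.3% in AZ6983, against 11.2% and 8.80% from counting alone. Without A3 the log2 fold change was 0.36, and with the percentage of unassigned reads as a covariate it was 1.09 (edgeR adjusted p = 1.0). An antisense gene, Il1bos, overlaps Il1b, and the strand setting of the counting is not given in the sources used here. Reads of both could therefore be mixed, or set aside if both genes were in the annotation.

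Tnf (chr17:35199381-35202007, minus strand), which encodes the cytokine TNF, had few counts, with 5 to 24 in control mice and 8 to 30 in AZ6983 mice. These were 0.172 CPM at the lowest, 0.464 at the median and 0.816 at the highest in controls and 0.314, 0.409 and 0.798 CPM in AZ6983. C6 and A4 had the highest values of their groups, C3 the lowest of all, and the range of AZ6983 lay inside that of the controls. On the log2 scale, the fold change was 0.08 with a standard error of 0.345 (95% interval -0.66 to 0.83, edgeR adjusted p = 0.946), and the exact permutation p was 0.771. The interval in linear terms ran from 0.632 to 1.78-fold, so a change of any size within it is not excluded by these values. Tnf varied by 46.3% between control mice, where counting gave 27.7%. Its direction was positive or negative depending on the mouse left out, between -0.13 and 0.32.

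Il6 (chr5:30013114-30019981, plus strand) encodes IL-6, a cytokine that signals through JAK2 and STAT3. It had 1 to 24 counts in 11 mice and 77 in C6, so 49.7% of all its counts came from C6. It was 0.0690 CPM at the lowest, 0.267 at the median and 2.62 at the highest in controls, and 0.0373, 0.136 and 0.863 CPM in AZ6983. A2 was the highest AZ6983 mouse, A6 the lowest of all, and the groups overlapped. The difference of log2 CPM was -0.61 with C6 (exact permutation p = 0.483) and -0.06 without it (exact permutation p = 0.916). With no filter on low counts, edgeR gave a log2 fold change of -1.23 with an adjusted p of 0.60.

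Il18 and Nlrp3 are the cytokine and sensor genes of the inflammasome. Il18 (chr9:50554827-50581840, plus strand) was 1.11 CPM at the lowest, 1.31 at the median and 1.70 at the highest in controls, and 1.18, 1.52 and 1.90 CPM in AZ6983. A1, A4 and A6 lay above every control, at 1.82 to 1.90 CPM, and A2, A3 and A5 lay among the controls at 1.18 to 1.22 CPM. AZ6983 differed from control by a log2 fold change of 0.21 with a standard error of 0.185 (95% interval -0.19 to 0.61, edgeR adjusted p = 0.685), and the exact permutation p was 0.320. Counting alone gave a coefficient of variation of 16.4% in the controls, where 15.9% was observed, so the spread between control mice was no larger than that of their 32 to 50 counts. In AZ6983 mice 24.0% was observed, where counting gave 15.1%. Bco2 and Tex12 overlap Il18 on the opposite strand.

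Nlrp3 (chr11:59541568-59566956, plus strand) was 1.54 CPM at the lowest, 1.65 at the median and 2.09 at the highest in controls, and 1.08, 1.58 and 2.01 CPM in AZ6983. C1 was the highest mouse, A1, A4 and A5 lay below every control, and A3 and A6 lay close to C1. The fitted difference on the log2 scale was -0.10 with a standard error of 0.175 (95% interval -0.47 to 0.28, edgeR adjusted p = 0.859), and the exact permutation p was 0.481. Control mice varied by 12.1% between them, where counting gave 14.4%. AZ6983 mice varied by 23.2%, where counting gave 15.0%.

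Hmgb1 (chr5:149046702-149184489, minus strand) encodes a chromatin protein that acts as an alarm signal when it leaves the cell, and it had 2456 to 6151 counts per mouse. It was 110 CPM at the lowest, 112 at the median and 125 at the highest in controls, and 100, 110 and 164 CPM in AZ6983. The highest value was that of A4, the mouse with the thymocyte markers, while A2, A3 and A5 lay below every control. The means were 115 CPM ± 6.54 and 117 ± 23.2 (SD, n = 6). The log2 fold change was 0.03 with a standard error of 0.106 (95% interval -0.20 to 0.26, edgeR adjusted p = 0.935, exact permutation p = 0.959) and -0.09 without A4 (exact permutation p = 0.104). Hmgb1 has near-identical pseudogene copies whose shared reads were set aside, and other genes overlap it, so its level is uncertain.

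Jak2 and Stat3 carry the signal from the receptor. Jak2 (chr19:29251828-29313080, plus strand) was 71.7 CPM at the lowest, 79.5 at the median and 82.3 at the highest in controls, and 70.8, 78.9 and 89.0 CPM in AZ6983. A4 was the highest mouse and A5 the lowest, with the control range inside that of AZ6983. The log2 fold change was 0.03 with a standard error of 0.0631 (95% interval -0.11 to 0.16, edgeR adjusted p = 0.90), and the exact permutation p was 0.695. The interval of 0.927 to 1.12-fold was the narrowest among the members.

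Stat3 (chr11:100885098-100939540, minus strand) was 123 CPM at the lowest, 135 at the median and 169 at the highest in controls, and 133, 142 and 154 CPM in AZ6983. C4 stood above all other mice, and the AZ6983 values lay inside the control range. The log2 fold change was 0.03 with a standard error of 0.0728 (95% interval -0.13 to 0.19, edgeR adjusted p = 0.90), and the exact permutation p was 0.636. The interval ran from 0.916 to 1.14-fold. Stat5a overlaps Stat3 on the opposite strand, and both are counted genes. Reads on both could have been set aside if the counting ignored the strand. These counts measure mRNA and not phosphorylation, the step by which JAK2 and STAT3 are activated.

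Socs3 and Nfkbia, whose RefSeq start-site windows are shown above, are the feedback inhibitors of the STAT3 and NF-κB arms. Socs3 (chr11:117966079-117970047, minus strand) was 7.49 CPM at the lowest, 10.4 at the median and 13.6 at the highest in controls, and 7.35, 10.3 and 12.2 CPM in AZ6983. C4 and C6 were the highest controls, C5 and A5 the lowest mice of their groups, and the ranges nearly coincided. For Socs3, the log2 fold change was -0.03 with a standard error of 0.164 (95% interval -0.38 to 0.33, edgeR adjusted p = 0.963), and the exact permutation p was 0.946.

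Nfkbia (chr12:55489410-55492647, minus strand) had the smallest p of the members and 1410 to 3204 counts per mouse. It was 48.0 CPM at the lowest, 56.6 at the median and 70.4 at the highest in controls, and 57.3, 71.6 and 88.5 CPM in AZ6983. A3, A4 and A6 lay above every control, C6 was the lowest mouse, and C5 lay above A1, A2 and A5. The means were 57.9 CPM ± 7.81 and 72.7 ± 12.5 (SD, n = 6), a log2 fold change of 0.33 with a standard error of 0.119 (95% interval 0.07 to 0.59, or 1.05 to 1.5-fold around 1.26). The edgeR adjusted p was 0.450, since 3.33% of the tested genes had a smaller p, and the exact permutation p before adjustment over the 10 members was 0.0346. It therefore did not pass the threshold. The exact p was 0.0671 without A4, 0.0714 without C6 and 0.0152 without A1, and the log2 fold change without A4 and C6 together was 0.21 (edgeR adjusted p = 0.510). Adding the percentage of unassigned reads as a covariate gave a log2 fold change of 0.23. In both of these fits the unadjusted edgeR p of Nfkbia was above 0.05.

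**Figure D2:**
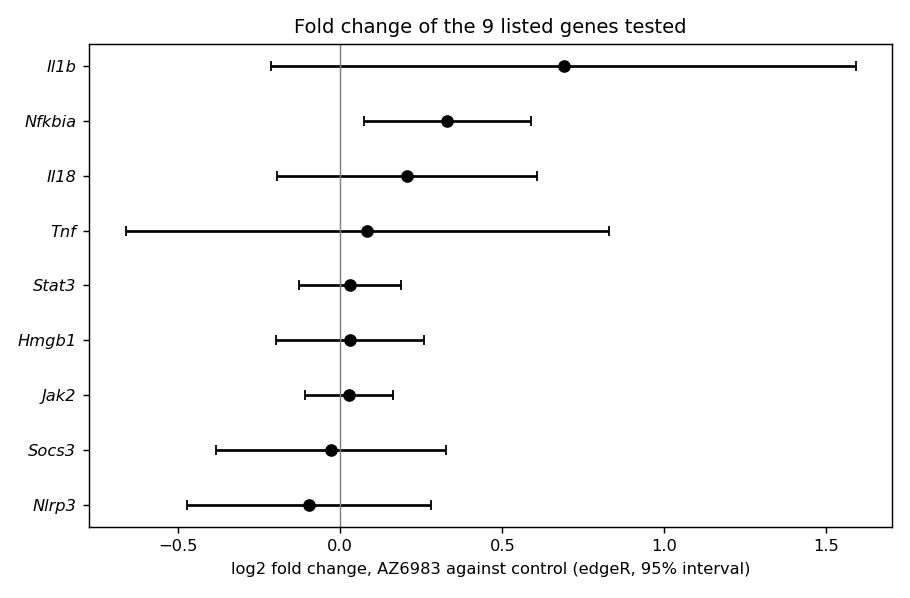
Log2 fold change of AZ6983 against control (horizontal axis) for the 9 members tested, in order of size. Points are edgeR estimates and bars are 95% intervals. The intervals of 8 genes span 0, and that of Nfkbia runs from 0.07 to 0.59, with an adjusted p of 0.450 by edgeR.

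The genes around the members were taken from 10 lists of 149 genes in all, of which 136 were tested. None of the 136 was called at 10% FDR by edgeR, 5 higher and 6 lower genes had an unadjusted p under 0.05 (8.09%, beside 10.2% of all tested genes), and in 0 did the groups lie apart (0.41% of all). Limma-voom gave 13 such genes (9.56%, beside 9.54% of all), and DESeq2, run without the filter, gave 17 of 147 (11.6%, beside 7.91% of all 24866). The latter share includes the low-count genes. On the genes past the filter, DESeq2 gave 13 of 135 (9.63%, beside 10.6% of all 15638). Without the filter, DESeq2 called 92 of 17592 genes with an adjusted p (0.523%) at 10% FDR, of which 1 was in the lists. The median log2 fold change by edgeR was 0.04, and 56.6% of the genes were positive, beside 0.01 and 52.4% for all tested genes.

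Further cytokines, with receptors and partners of cytokines, numbered 24, of which 19 were tested, with 9 positive and 10 negative and a median of -0.00. The 5 that were not tested, Il11, Il10, Csf2, Il12b and Il23a, all encode cytokines or their subunits. The largest negative value was that of Il1rn, which encodes the antagonist of the IL-1 receptor. Il1rn was 2.93 CPM at the lowest, 5.98 at the median and 8.64 at the highest in controls, and 1.84, 2.09 and 6.4 CPM in AZ6983. In AZ6983, 5 of 6 mice lay below every control, and A2 lay among the controls at 6.4 CPM. Its log2 fold change was -1.07 with a standard error of 0.341 (edgeR adjusted p = 0.447, exact permutation p = 0.0130), so it did not pass, and -1.73 with the percentage of unassigned reads as a covariate. In that fit 0 genes were called at 10% FDR, and the covariate largely follows the groups. Il18rap, a chain of the IL-18 receptor, had a log2 fold change of 0.69 with a standard error of 0.242 (edgeR adjusted p = 0.450), with 4 of 6 AZ6983 mice above every control.

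Il1b and Il1rn were set side by side after their values were seen, so the ratio is a description with no test. The count of Il1b per count of Il1rn was 0.265 to 0.768 in the 6 control mice. In AZ6983 mice it was 2.27 in A1, 0.393 in A2, 4.67 in A3, 2.14 in A4, 0.788 in A5 and 2.11 in A6. All AZ6983 mice but A2 had a higher ratio than every control, A5 by a small margin.

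**Figure D3:**
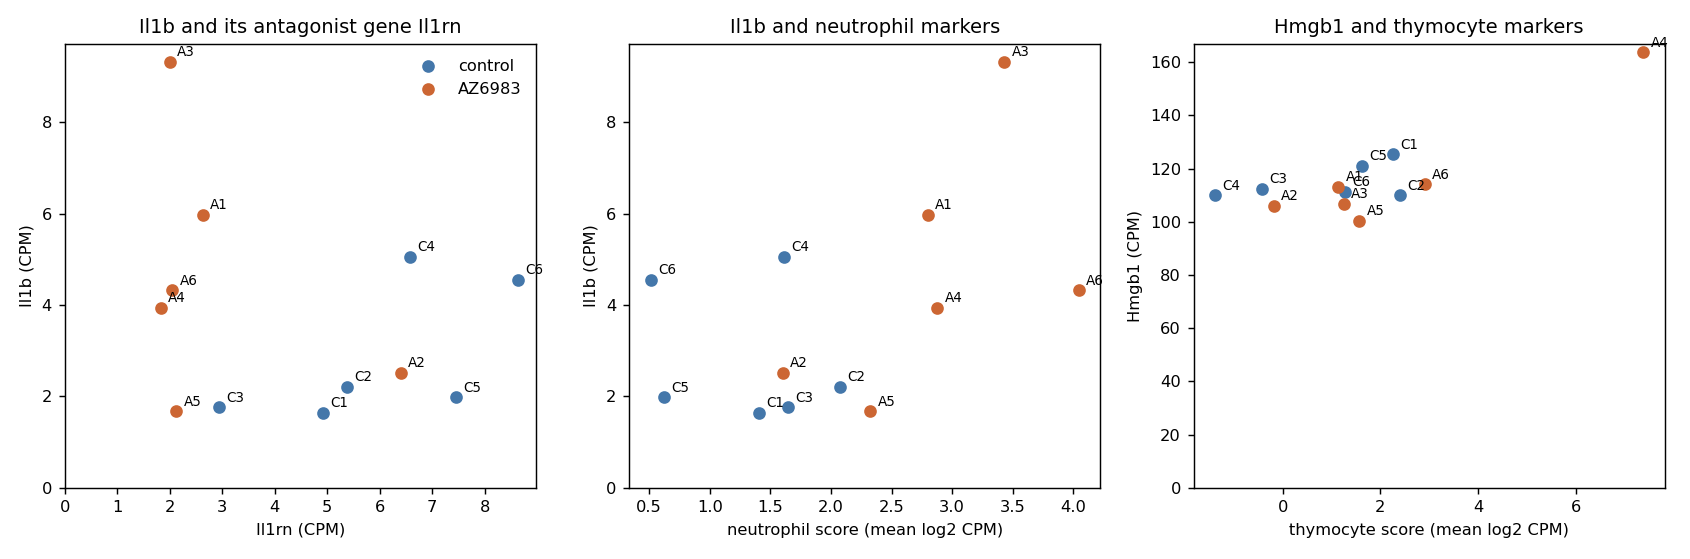
Left, Il1b against Il1rn (CPM on both axes). Middle, Il1b in CPM against the neutrophil score, the mean log2 CPM of the neutrophil markers. Right, Hmgb1 in CPM against the thymocyte score. Points are the 6 control (blue) and 6 AZ6983 (orange) mice. A1, A3, A4 and A6 lie at low Il1rn with Il1b of 3.94 to 9.33 CPM, and A4 stands alone at the right of the last panel with Hmgb1 at 164 CPM.

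Inflammasome partners were all 15 tested, with 8 positive, 7 negative and a median of 0.05. Nek7, which NLRP3 needs for its assembly, was 150 to 195 CPM in controls and 128 to 167 CPM in AZ6983 (log2 fold change -0.21, standard error 0.0795, edgeR adjusted p = 0.450), with 4 of 6 AZ6983 mice below every control. Gsdmd, the pore protein through which IL-1β leaves cells, had a log2 fold change of 0.17 (edgeR adjusted p = 0.532). Receptors and adaptors of HMGB1, listed together with Hmgb2 and Hmgb3, gave 11 positive and 4 negative among 15 tested, with a median of 0.07. Hmgb2 at 0.90 and Hmgb3 at 0.16 are among the positive genes and are neither receptors nor adaptors. Traf6, a ubiquitin ligase below the Toll-like receptors, was 28.7 to 30.5 CPM in controls and 29.9 to 37.3 CPM in AZ6983 (log2 fold change 0.16, standard error 0.0653, edgeR adjusted p = 0.466). Ticam1, a Toll-like receptor adaptor, had 0.26 (edgeR adjusted p = 0.499). With the covariate, Nek7 was at -0.018 and Ticam1 at -0.018, and without A4 Gsdmd was at 0.096.

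JAK kinases and STAT factors other than the members gave 8 positive and 1 negative among 9, with a median of 0.09, where 52.4% of all tested genes were positive. Of these 9, 0 had an unadjusted p under 0.05, beside 10.2% of all tested genes. The list is too short to weigh either count. The smallest p belonged to Stat5b with a log2 fold change of 0.12 (edgeR adjusted p = 0.559) and Stat5a with 0.20 (edgeR adjusted p = 0.585), both transcription factors of cytokine signalling. Stat5b was at 0.048 without A4, and Stat5a at 0.048 without A5. Inhibitors of this signalling gave 8 positive and 7 negative among 15, with a median of 0.02. Cish, a SOCS family gene induced by STAT5, was 2.77 to 8.40 CPM in controls and 4.75 to 17.7 CPM in AZ6983 (log2 fold change 0.83, standard error 0.363, edgeR adjusted p = 0.480, and 0.54 without A1), and Socs6 had a log2 fold change of -0.10 (edgeR adjusted p = 0.529). STAT3 target genes gave 7 positive and 9 negative among 16, with a median of -0.14. Timp1, an inhibitor of metalloproteinases, was 20.7 to 39.0 CPM in controls and 11.2 to 38.3 CPM in AZ6983, with all AZ6983 mice but A2 below every control (log2 fold change -0.66, standard error 0.301, edgeR adjusted p = 0.487). Bcl6, a transcriptional repressor, had -0.51 (edgeR adjusted p = 0.537). Timp1 was at -1.05 without A2, and with the covariate Timp1 was at -1.17 and Bcl6 at -0.90.

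NF-κB subunits, with the kinases and adaptors above them, gave 10 positive and 4 negative among 14, with a median of 0.11. Nfkb2, the precursor of the p52 subunit, was 17.2 to 22.8 CPM in controls and 19.2 to 24.5 CPM in AZ6983 (log2 fold change 0.20, standard error 0.0839, edgeR adjusted p = 0.468), and Rel, another subunit, had 0.36 (edgeR adjusted p = 0.497). The list of NF-κB inhibitors and IκB family genes other than Nfkbia gave 6 positive and 5 negative among 11, with a median of 0.12. Of these 11, 0 had an unadjusted p under 0.05, beside 10.2% of all tested genes, and the list is too short to weigh this. Nfkbid had a log2 fold change of 0.62 (edgeR adjusted p = 0.526), and Tnfaip3, which encodes the ubiquitin-editing enzyme A20, had 0.37 (edgeR adjusted p = 0.529). NF-κB target genes gave 8 positive and 8 negative among 16 tested, with a median of -0.04. Ccl2, the main monocyte chemokine, was 2.21 to 4.22 CPM in controls and 1.51 to 3.06 CPM in AZ6983 (log2 fold change -0.53, standard error 0.214, edgeR adjusted p = 0.462), and Sele, an endothelial adhesion molecule, had -0.60 (edgeR adjusted p = 0.469). With the covariate, the log2 fold changes were 0.016 for Nfkb2, 0.032 for Rel, 0.16 for Tnfaip3, -0.88 for Ccl2 and -1.06 for Sele. Without A4 they were 0.27 for Nfkbid and 0.18 for Tnfaip3. The genes named were those with the smallest p of each list.

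The cholinergic list had 11 genes, of which 10 were in the table and 6 were tested, with 2 positive and 4 negative and a median of -0.25. Chrna7, the gene of the receptor that AZ6983 targets, was 1.0 CPM at the lowest, 1.70 at the median and 3.88 at the highest in controls, and 0.776, 1.18 and 2.82 CPM in AZ6983. Its groups overlapped, with 3 of 6 AZ6983 mice below every control (log2 fold change -0.62, standard error 0.417, edgeR adjusted p = 0.591). Ric3, which helps the receptor to fold, was 31.6 to 45 CPM in controls and 24.8 to 34.9 CPM in AZ6983 (log2 fold change -0.31, standard error 0.104, edgeR adjusted p = 0.450). With the covariate, Chrna7 was at -0.29 and Ric3 at -0.12, and Chrna7 was at -0.38 without C6 and -0.39 without C3.

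**Figure D4:**
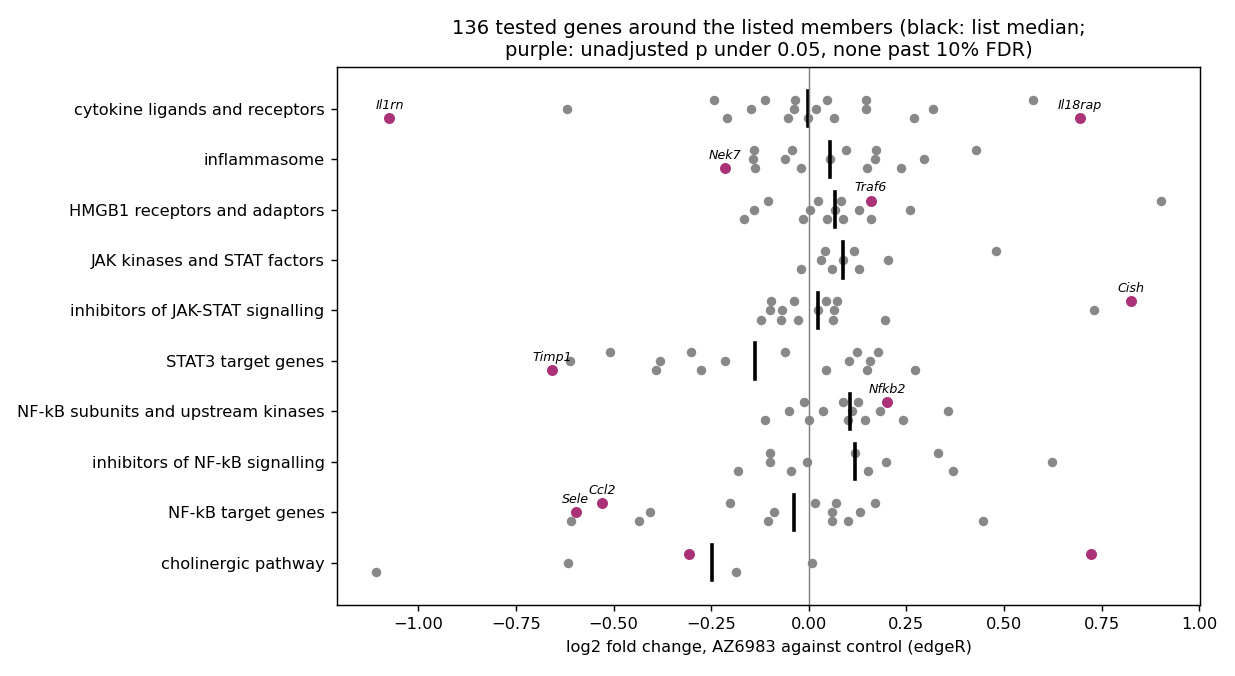
Log2 fold change of AZ6983 against control (horizontal axis, edgeR) for the 136 tested genes of the 10 lists (rows). Grey points are genes, purple points the 11 genes with an unadjusted p under 0.05, and black bars list medians, which run from -0.25 to 0.12. Il1rn at -1.07 lies near the left end and Cish at 0.83 on the right, and 0 of the genes pass 10% FDR.

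Markers of the cells an aorta holds were read beside the members. The macrophage markers summed to 1056 to 1571 CPM in controls and 873 to 1599 CPM in AZ6983, with 0 of 12 at 0 in any mouse, and their score differed by -0.12 (exact permutation p = 0.481). The neutrophil markers, 12 listed and 9 tested, summed to 18.8 to 63.8 CPM in controls and 40.0 to 269 CPM in AZ6983, with Ly6g, Mpo and Elane at 0 in some mice. Their score was 1.31 ± 0.619 in controls and 2.85 ± 0.849 in AZ6983 (SD, n = 6, exact permutation p = 0.00866). Among the members, Nfkbia had the highest correlation with the neutrophil score (r = 0.68, rho = 0.60, permutation p = 0.0167 and 0.0437, adjusted p of r = 0.527 over 36 relations), which was 0.42 without the mice farthest from the median, A4 and A6, and 0.41 with the group means taken out. Il1b had r = 0.48 with the same score (permutation p = 0.113, adjusted p = 0.641). This was 0.29 without A3 and C1, the mice farthest from its median, and 0.30 with the group means taken out. The part of the neutrophil markers in the values of Il1b and Nfkbia was not tested. The endothelial score was 6.48 ± 0.0624 in controls and 6.59 ± 0.0971 in AZ6983 (exact permutation p = 0.0216), and without C6 the p was 0.0649. The paper lists Ltf, Ngp, Camp and Csf3r of the neutrophil markers, and Vwf of the endothelial markers, as higher with AZ6983 in these same mice. The p-values of the neutrophil and endothelial scores are therefore a description and no independent support.

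None of the 36 pairs of tested members, and none of the 36 relations of members to the macrophage, neutrophil, endothelial and smooth muscle scores, passed 5% FDR in permutation tests over the 12 mice. Pearson's r of the member pairs lay between -0.47 and 0.70, with a median of 0.18. Hmgb1 and Jak2 had the highest value (r = 0.70, rho = 0.57, permutation p = 0.00507 and 0.0584, adjusted p = 0.183), which was 0.39 without A4 and C1. Stat3 and its target Socs3 followed (r = 0.63, rho = 0.53, permutation p = 0.0256 and 0.0801, adjusted p = 0.462), at 0.36 without A2 and C4. Both were thus lower without the mice farthest from the median of the pair's first gene. Leaving out such mice narrows the range, which can by itself lower r.

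**Figure D5:**
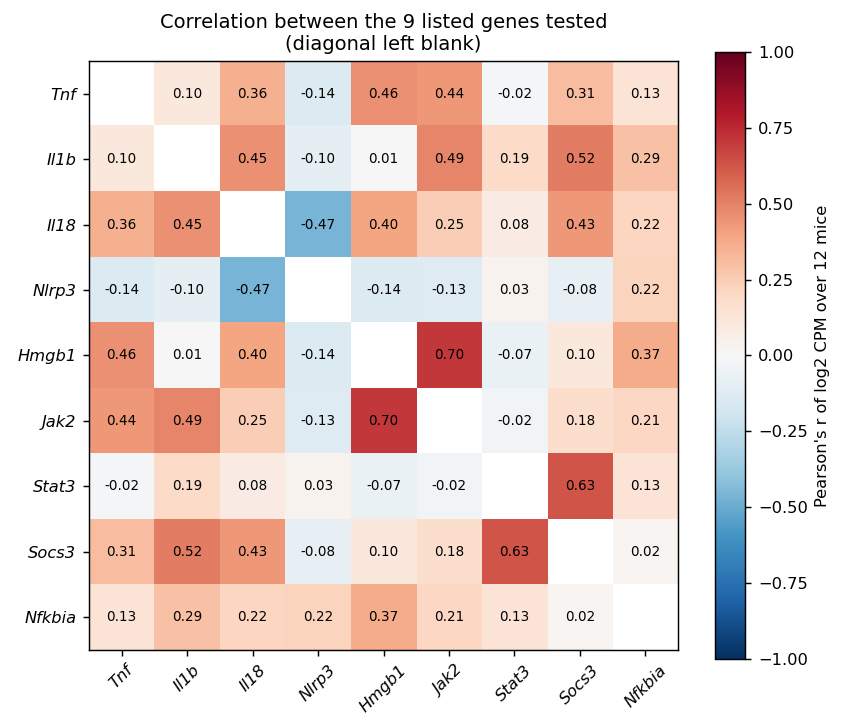
Pearson's r of log2 CPM over the 12 mice for each pair of the 9 tested members, on a colour scale from -1 to 1, with the diagonal left blank. Hmgb1 with Jak2 at 0.70 and Stat3 with Socs3 at 0.63 are the highest cells, and Il18 with Nlrp3 at -0.47 the lowest.

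The tested genes whose log2 CPM over the 12 mice was most like a member's are given as a description. Angptl2 followed Il1b with r = 0.93, and Stx11 with 0.91. Spast followed Nfkbia with r = 0.93, Slc35b3 followed Jak2 with 0.97 and Tnfrsf1a, the TNF receptor gene, followed Stat3 with 0.92. Socs3 had no gene over 0.9, with Trim8 nearest at 0.87. The histone gene Hist1h2ac followed Hmgb1 with r = 0.97, one of 51 genes over 0.9, and with 0.84 when A4 was left out. Mtmr12 with Tnf, Lpar4 with Il18 and Mir145a with Nlrp3 had r = 0.91, 0.91 and 0.87. With 1 mouse left out, the lowest r was 0.96 for Slc35b3, 0.92 for Angptl2, 0.82 for Tnfrsf1a and 0.75 for Mir145a. Within the controls alone, Mir145a with Nlrp3 had r = 0.38.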

How the data were processed

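Stranded total RNA depleted of ribosomal RNA was sequenced from thoracic aorta of 6 control and 6 AZ6983 mice. The authors deposited raw counts per gene symbol. The submitters' processing notes name CASAVA 1.8.2, STAR 2.5.2b, HTSeq 0.6.1p1 and mm10, while the annotation and the strand setting of the counting are not given in the sources used here. The table has 3 rows that name no gene (reads on no gene, on several genes or on several places), which entered neither library sizes nor tests. Such reads are missing from near-identical genes. Samples were grouped by their labels, and the column of A1 was matched by part of its mouse number. The column names also end in a number of unstated meaning, which separates the groups in part.

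Counts were tested in R 4.3.3 with edgeR 4.0.16 (TMM, filterByExpr, quasi-likelihood test, no covariate), with Benjamini-Hochberg adjustment over the 15857 tested genes at 10% FDR. Single levels were tested on log2 CPM (prior count 2) by two-sided exact permutation over 924 assignments of the mice, whose smallest p is 0.00216. They are not adjusted. Correlations used 100000 permutations. Alternatives were DESeq2 1.42.0 on every gene, limma-voom (limma 3.58.1), RLE factors, library totals, no filter, a mean of 50 counts, a prior count of 0.5, the percentage of reads outside genes as a covariate, 5% FDR and each mouse left out. The fit without A4 and C6 together and DESeq2 on the filtered genes were chosen after seeing the data. The fits across genes were tested on simulated data.

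The members and lists were chosen with earlier results of these data known. Named were every member, Apoe, Chrna7, the 2 genes of each list with the smallest edgeR p, any list gene called or with groups apart, and the 3 genes most like each member, of which some are given. Gene positions and exon lengths came from GENCODE M21 by symbol. 1 gene of the lists enters their counts and medians but is not reported here by name. Protein sequences were not used here. Precision follows the counts per gene, which are given where they are few.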

Additional observations from a re-analysis of the deposited data

Results flagged for a closer look

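In 8 of 84 groups of 6 mice, 1 mouse stood apart by Dixon's criterion, where chance gives about 4.2, or 1 group in 20. Among the members, Hmgb1 in A4 was at a log2 CPM of 7.36 with the other AZ6983 mice at 6.65 to 6.84, and Stat3 in C4 was at 7.40 with the other controls at 6.95 to 7.10. Il1rn in A2 was at a log2 CPM of 2.69, with the other AZ6983 mice at 0.93 to 1.44, and Timp1 in the same mouse was at 5.26, with the others at 3.50 to 4.08. Stat5b in C3 was at 5.91, with the other controls at 6.02 to 6.06. The T cell score of A4 was 5.22, with the other AZ6983 mice at 0.24 to 1.19. The endothelial score of C6 was 6.35, with the other controls at 6.49 to 6.53, and its brown fat score was 7.31, with the others at 7.95 to 8.18.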

How the results depend on the processing

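No member was called under any alternative run, and Il1b, Il18, Nlrp3 and Nfkbia kept the sign of their log2 fold change in every fit. The number of genes called, 0 with edgeR, was 92 with DESeq2 on every gene, 84 with DESeq2 on the genes past the filter, 2 with library totals, 1 without A4 and C6 together and 0 to 27 with 1 mouse left out, where 27 came without A5. The number of listed genes called, 0 with edgeR, was 1 with DESeq2, with the filter or without it. The number of members with an exact p under 0.05, 1 with TMM, was 0 with library totals (Nfkbia, p = 0.0758) and 0 to 1 with 1 mouse left out, being lost without C1, C3, C6, A3, A4 or A6. The number of cell type scores with such a p, 2 as reported, was 1 to 3 with 1 mouse left out. Some values changed sign. With the covariate, the log2 fold change of Tnf was -0.20 and that of Ticam1 -0.018 (0.26 without it). Without A4 and C6, it was -0.12 for Hmgb1 and -0.022 for Jak2. Limma-voom gave 0.00264 for Socs3. With library totals, the difference of log2 CPM of Hmgb1 was -0.00383 and the difference of score of white fat markers -0.00348. With 1 mouse left out, log2 fold changes ran from -0.13 to 0.32 for Tnf, from -0.092 to 0.055 for Hmgb1, from -0.013 to 0.045 for Jak2, from -0.017 to 0.095 for Stat3 and from -0.12 to 0.060 for Socs3. Differences of log2 CPM ran from -0.11 to 0.26 for Tnf, from -0.089 to 0.052 for Hmgb1, from -0.011 to 0.055 for Jak2 and from -0.10 to 0.076 for Socs3, and those of scores from -0.026 to 0.12 for fibroblast, from -0.071 to 0.030 for smooth muscle and from -0.080 to 0.083 for white fat markers. The cause was not tested. Depth limits the precision of Il18 and Nlrp3, whose control mice differed by no more than counting gives. Their AZ6983 mice differed by more than that. No paired analysis was possible because the labels give no replicate numbers shared between the groups.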
